A study of Mus musculus with 74 samples.

Results

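Sfmbt2, Jade1, Gab1, Smoc1 and Slc38a4 are 5 genes of noncanonical imprinting, the class whose parental bias starts from histone methylation and not from DNA methylation. They were taken by name as genes known from other work to lose this imprint after somatic cell nuclear transfer (SCNT). No measured value was used to choose them, though earlier results of these data were known. All 5 were found, out of 21938 protein-coding genes of the GENCODE M21 annotation on the 21 chromosomes of mm10. H3K9me3, the histone mark of heterochromatin, was profiled by ultra-low-input native ChIP-seq in donor cumulus cells (CC), in SCNT embryos at 6 and 14 h post activation (hpa), at 2-cell, at 4-cell, at 8-cell and as morulae, in both lineages of SCNT blastocysts, namely ICM (inner cell mass) and TE (trophectoderm), and in fertilized zygotes at pronuclear stage 5 (PN5). CC nuclei and enucleated oocytes both came from B6D2F1 females, also written BDF1, and constructs were activated with SrCl2 and cytochalasin B. The fertilized zygotes came from C57BL/6 females mated with C57BL/6 males, and the paper credits its fertilized H3K9me3 data to an earlier publication. Embryo type, strain and study therefore cannot be told apart in any comparison with PN5.

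In noncanonical imprinting, Polycomb complexes place H3K27me3 on the gene in the growing oocyte, and this mark keeps the maternal copy silent in the early embryo, so that the paternal copy is expressed. A somatic nucleus does not carry the oocyte's pattern, and both copies are active in many SCNT embryos. The bias persists longest in extraembryonic tissue, and several of the genes act in placental growth. H3K9me3 is a different repressive mark, and these lists hold neither H3K27me3 nor expression, nor do they separate the parental copies.

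By the labels, between 2 and 7 precipitated libraries stand behind each list. They were pooled before peaks were called, so each gene has 1 value per list, no value has a replicate error, and no test across samples was possible. Reads were drawn to the same number for every list by the authors. The shortest list had 120195 peaks (2-cell) and the longest 200342 (morula), and they covered between 134 Mb (PN5) and 255 Mb (CC). An interval of coverage is a Wilson 95% interval in which each 1 kb counts as 1 unit, and it covers counting error only. A stretch without a peak was not above the caller's threshold, which does not show that the mark was absent.

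The genes have different jobs. Sfmbt2 (ENSMUSG00000061186.15, chr2:10370510-10595253, plus strand) encodes a Polycomb-group protein needed in trophoblast, spans 224744 bp and hosts a large miRNA cluster in an intron. Jade1 (ENSMUSG00000025764.14, chr3:41555731-41616864, plus strand, 61134 bp) encodes a PHD finger scaffold of a histone acetyltransferase complex. Gab1 (ENSMUSG00000031714.9, chr8:80764438-80880519, minus strand, 116082 bp) encodes a docking protein that relays growth factor receptor signals. Smoc1 (ENSMUSG00000021136.13, chr12:81026808-81186414, plus strand, 159607 bp) encodes a secreted calcium-binding matrix protein. Slc38a4 (ENSMUSG00000022464.14, chr15:96994820-97055956, minus strand, 61137 bp) encodes a transporter of neutral amino acids that is abundant in placenta.

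The promoters, here 1 kb on either side of the annotated 5′ end, differed in CpG content. Those of Gab1 (154 CpG) and Smoc1 (96 CpG) were high-CpG promoters, for which a 500-bp window must reach a CpG ratio of 0.75 and a GC content of 55%. Those of Sfmbt2 (59 CpG), Jade1 (66 CpG) and Slc38a4 (65 CpG) were of the intermediate class. TGCCGC, the hexamer read by the imprint factor ZFP57 when methylated, was searched on both strands. It occurred 1 time in the Smoc1 promoter and 2 times in the Slc38a4 promoter and was not in the windows of Sfmbt2, Jade1 and Gab1, against 43.0% of all 21938 promoters with at least 1 match.

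The sequences below are shown because a promoter peak at 6 hpa was a feature that all 5 genes had in common. Each is the stretch of 200 bases with the most CpG inside the 6 hpa promoter peak and outside annotated UTRs, from GRCm38.p6, on the strand of the gene and with CpG in capitals. The Gab1 peak had no such stretch, because 716 of its 800 bases were annotated as UTR. The Sfmbt2 stretch (chr2:10370100-10370299, plus strand, 10 CpG) ends 211 bases upstream of the 5′ end. The Jade1 stretch (chr3:41556103-41556302, plus strand, 8 CpG) is intronic. The Smoc1 stretch (chr12:81027063-81027262, plus strand, 20 CpG) runs from coding sequence of the first exon into the intron, and the Slc38a4 stretch (chr15:97055621-97055820, minus strand, 15 CpG) is intronic.
Sfmbt2: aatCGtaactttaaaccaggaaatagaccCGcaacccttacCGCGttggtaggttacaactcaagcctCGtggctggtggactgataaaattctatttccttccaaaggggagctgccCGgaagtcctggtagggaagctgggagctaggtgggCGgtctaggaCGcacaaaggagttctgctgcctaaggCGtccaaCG
Jade1: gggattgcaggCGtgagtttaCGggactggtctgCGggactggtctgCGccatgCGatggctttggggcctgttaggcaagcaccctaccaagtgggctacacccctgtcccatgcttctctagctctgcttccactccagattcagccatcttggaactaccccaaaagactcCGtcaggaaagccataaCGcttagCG
Smoc1: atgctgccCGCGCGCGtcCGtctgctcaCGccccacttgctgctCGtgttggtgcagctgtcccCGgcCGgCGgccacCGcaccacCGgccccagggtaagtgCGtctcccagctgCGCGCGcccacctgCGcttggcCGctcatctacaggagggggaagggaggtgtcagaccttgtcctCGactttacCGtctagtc
Slc38a4: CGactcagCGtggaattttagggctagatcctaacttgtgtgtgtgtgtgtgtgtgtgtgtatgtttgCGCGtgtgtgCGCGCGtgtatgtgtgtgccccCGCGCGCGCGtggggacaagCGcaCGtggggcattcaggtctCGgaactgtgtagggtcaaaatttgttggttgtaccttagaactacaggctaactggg

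At 6 hpa the promoter of each of the 5 genes held a peak, the only list in which this was so. Peaks covered 19.3% of the Sfmbt2 promoter, 33.0% of that of Jade1, 40.0% of that of Gab1, 43.0% of that of Smoc1 and 59.5% of that of Slc38a4. Among all protein-coding genes, 34.4% had a peak in the promoter at 6 hpa, with 44.7% among high-CpG and 30.9% among intermediate promoters. Together the 5 promoters were covered to 39.0% (16.2 to 67.9%), against a mean of 12.0% over all protein-coding genes. The peaks were of low to moderate fold over input, from 2.44 (Gab1) to 3.35 (Jade1), with a median of 2.73 over the whole 6 hpa list. With peaks of a −log10 q of at least 2, the Gab1 and Smoc1 peaks were lost and 3 of the 5 promoters kept one (22.7% of all promoters), and with a fold of at least 3 only Jade1 did (9.60%).

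The promoters of Jade1, Gab1 and Smoc1 had a peak at 6 hpa and in no other list. This held for 17.5% of all protein-coding genes, for 28.7% of those with a high-CpG promoter and for 12.2% of those with an intermediate one. With a −log10 q of at least 2 it held for Jade1 alone (12.2% of all protein-coding genes), as it did with a fold of at least 3 (5.48%). With the lists trimmed to the covered length of the shortest it held for Sfmbt2, Jade1 and Smoc1 (15.5%). Gab1 then had no peak at 6 hpa and Sfmbt2 none in CC. The 3 peaks lay just inside the genes. That of Jade1 (chr3:41556046-41556706) began 315 bases after the 5′ end, lay in an intron and had a fold of 3.35. That of Gab1 (chr8:80879520-80880319) began 200 bases after it and had a fold of 2.44, and that of Smoc1 (chr12:81026912-81027771) began 104 bases after it and had a fold of 2.56. The donor cells had no peak there.

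**Figure D1:**
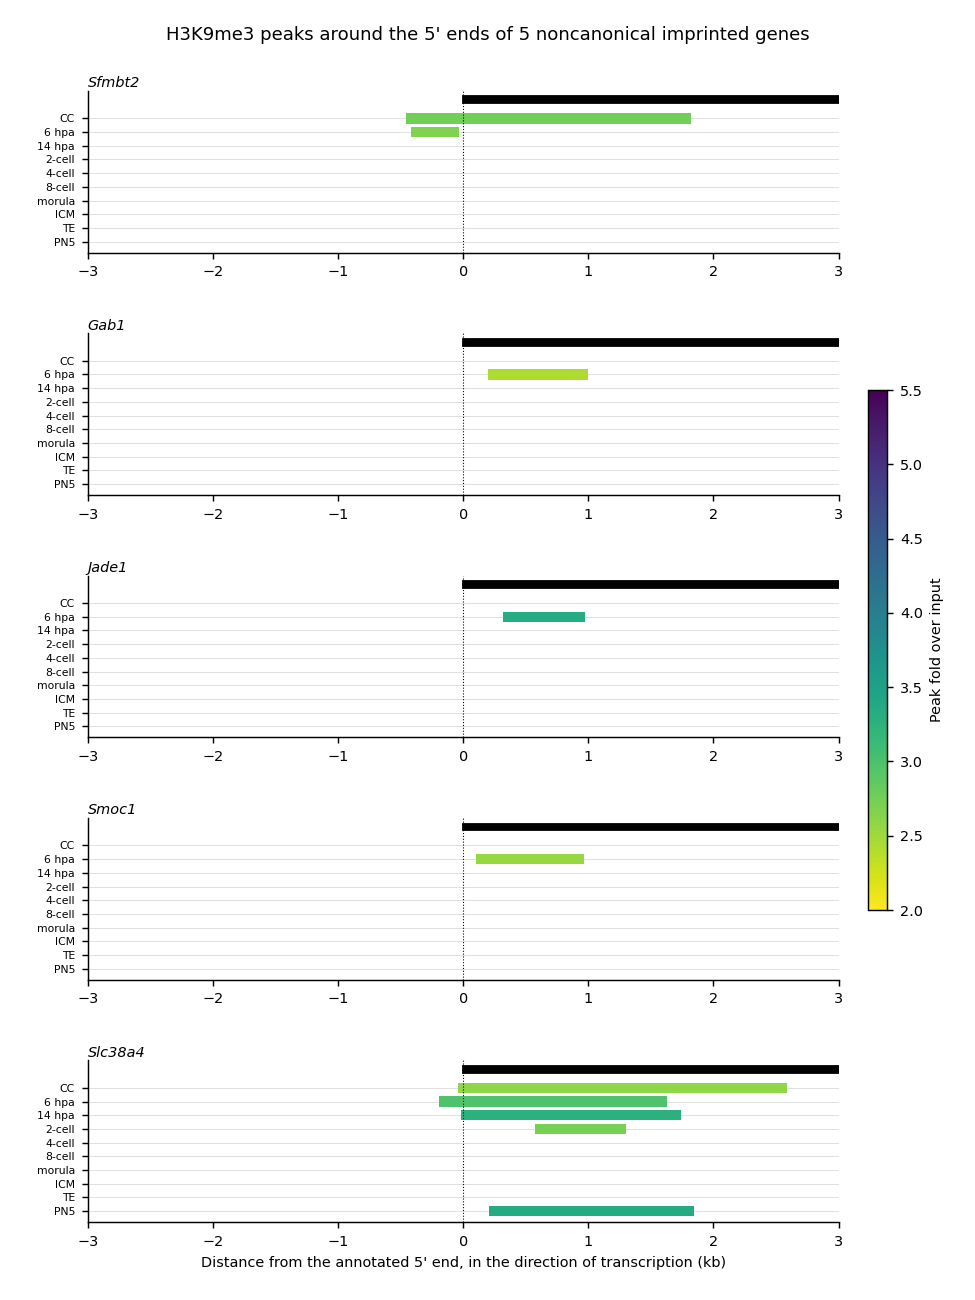
H3K9me3 peaks around the 5′ end of each gene, to 3 kb on either side. Rows are the 10 peak lists, the x axis gives the distance from the 5′ end in kb in the direction of transcription, the black bar is the gene body, and colour gives the peak's fold over input. All 5 genes have a peak at 6 hpa, Sfmbt2 and Slc38a4 also in CC, and Slc38a4 alone in the lists of 14 hpa, 2-cell and PN5.

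Sfmbt2 and Slc38a4 were the 2 genes whose promoters already held a peak in CC, where 12.5% of all protein-coding genes had one. The CC peak of Sfmbt2 (chr2:10370055-10372333, 2279 bp, fold 2.76) spanned the 5′ end and covered 72.8% of the promoter, more than in 96.7% of protein-coding genes. At 6 hpa the Sfmbt2 peak (chr2:10370095-10370480) was 386 bp wide with a fold of 2.68 and lay upstream of the 5′ end. No later SCNT list and not PN5 had a peak in this promoter. The stretch within the gene that carried the donor peak was thus without a peak from 6 hpa on. The CC peaks of both genes were weak: at a fold of at least 3, or with CC trimmed to the covered length of the shortest list, CC had 0 of the 5 promoters.

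The Slc38a4 promoter was covered to 51.9% (CC), 59.5% (6 hpa), 51.0% (14 hpa), 21.5% (2-cell) and 39.9% (PN5), and it had no peak from the 4-cell stage to ICM and TE. It was the only one of the 5 promoters with a peak at 14 hpa (13.1% of all protein-coding genes), at the 2-cell stage (9.96%) and in PN5 (11.5%). The widest of its peaks was that of CC (chr15:97053366-97055993, 2628 bp, fold 2.60). At 14 hpa the peak (chr15:97054212-97055976) had a fold of 3.26, and in PN5 (chr15:97054110-97055753) one of 3.36. The 2-cell peak was the narrowest, at 729 bp and a fold of 2.73, and its −log10 q of 1.75 put it below a limit of 2. SCNT and fertilized zygotes thus both had a peak over the start of this gene, and so did the donor cells.

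From the 4-cell stage to the blastocyst none of the 5 promoters held a peak. The share of all protein-coding genes with one was 8.85% (4-cell), 9.38% (8-cell), 7.31% (morula), 6.28% (ICM) and 6.32% (TE). At these shares, 0 of 5 genes is not apart from the background. With a promoter of 2500 bases on each side, or around any annotated transcript start, the count for each list stayed within 1.5 times the one given.

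**Figure D2:**
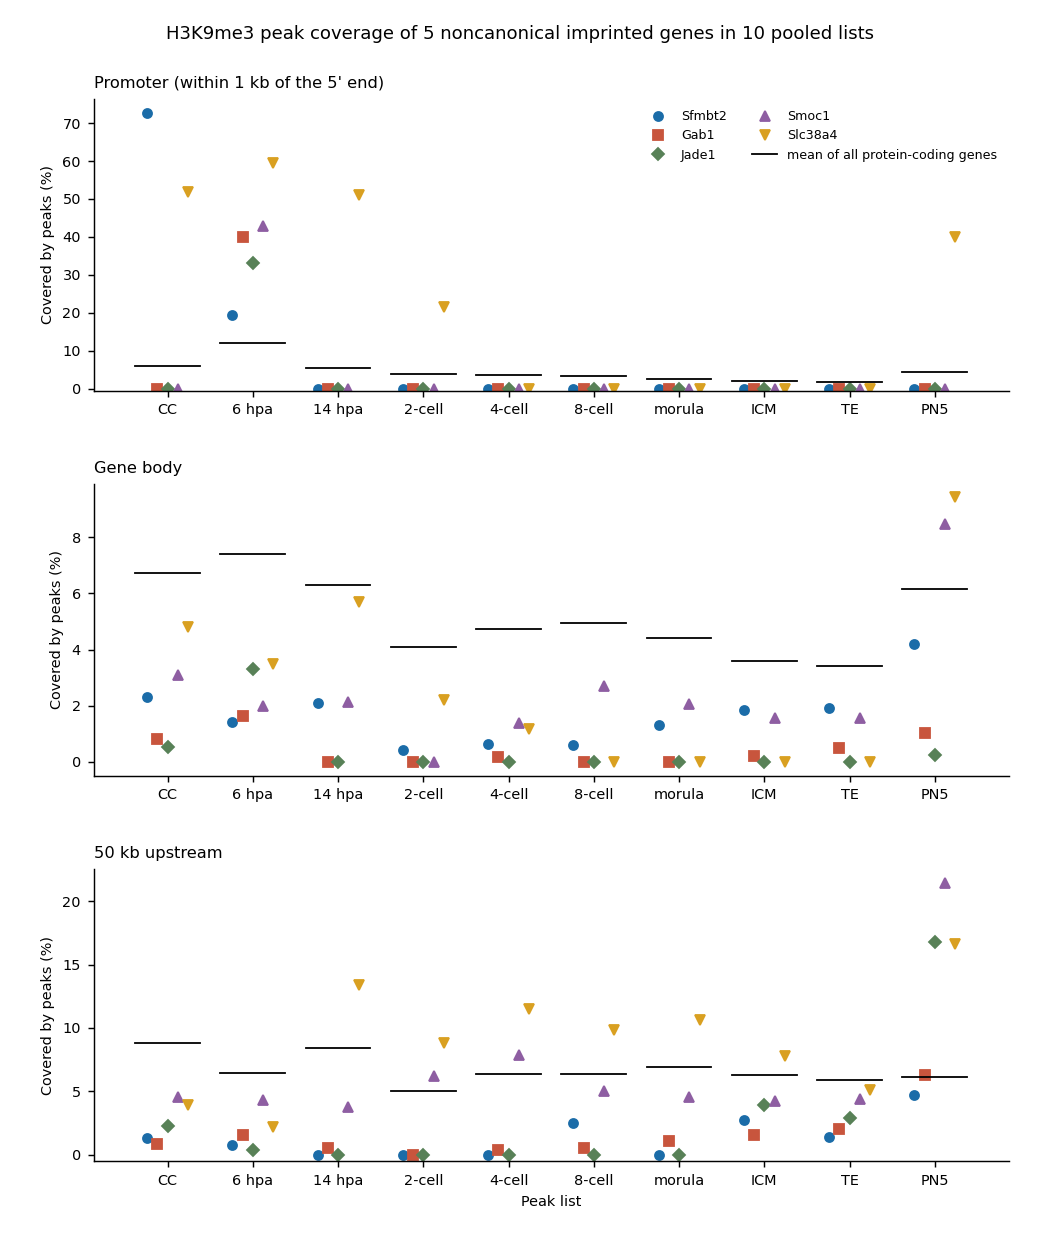
Share of each promoter, gene body and 50 kb upstream flank covered by H3K9me3 peaks, in percent, for the 5 genes in each of the 10 lists (markers), with the mean over all 21938 protein-coding genes (black lines). There are no error bars because each list is 1 pooled value. Promoter values leave 0 for all 5 genes only at 6 hpa, and the upstream values of Jade1, Smoc1 and Slc38a4 reach 16.8%, 21.5% and 16.6% in PN5.

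In the 10 lists, gene body coverage of the 5 genes reached at most 9.43%, that of Slc38a4 in PN5. Together the 5 bodies, 622704 bp in all, were covered to 2.30% (CC, 1.38 to 3.80%), 1.99% (6 hpa), 1.87% (14 hpa), 0.367% (2-cell), 0.726% (4-cell), 0.909% (8-cell), 0.992% (morula), 1.10% (ICM), 1.18% (TE) and 4.83% (PN5, 3.41 to 6.81%). The 2-cell list was the lowest and PN5 the highest. Protein-coding genes of 50 to 200 kb, the size of 4 of the 5, had mean values of 4.28% in CC, 2.68% at the 2-cell stage and 4.69% in PN5, and medians of 1.58%, 0.311% and 2.92%. The 5 bodies together lay between the median and the mean in CC, at 6 hpa and in the lists from 2-cell to 8-cell. They were below both at 14 hpa and in morula, ICM and TE, where the medians were 1.99%, 1.28%, 1.61% and 1.62%. These medians were inside the intervals of the 5 bodies. In PN5 the 5 bodies were above both, but the mean of 4.69% was inside their interval. The value of the 5 bodies weights each gene by its length, while the medians and means count each gene once. PN5 was the list with the most covered gene body for Sfmbt2, Smoc1 and Slc38a4. This holds for 27.0% of all protein-coding genes and for 37.7% of those of 50 to 200 kb.

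Between lists that follow each other in development no gene body differed by 5 percentage points or more, the size taken as a called difference. Among all protein-coding genes, 16.5% were past it upward and 10.2% downward from CC to 6 hpa, 11.3% and 14.8% on to 14 hpa, and 4.43% and 13.6% on to the 2-cell stage. The upward and downward shares were 9.07% and 5.13% for the 4-cell stage after the 2-cell stage, 6.42% and 5.16% for the 8-cell stage, and 6.24% and 8.51% for the morula. From morula they were 4.34% and 8.67% to ICM and 4.35% and 9.03% to TE. Between the blastocyst lineages 3.67% were higher in ICM and 3.10% lower. With 5 genes, a count of 0 is not apart from such shares. Between 14 hpa and PN5 it was passed by Smoc1, with 2.14% at 14 hpa and 8.47% in PN5, as it was by 19.6% of all protein-coding genes in that direction and by 13.3% in the other. With peaks of a −log10 q of at least 2, no gene body passed it in that comparison.

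In the Sfmbt2 body, covered to 2.32% (CC), 1.42% (6 hpa), 2.11% (14 hpa), 0.421% (2-cell), 0.621% (4-cell), 0.607% (8-cell), 1.30% (morula), 1.83% (ICM), 1.91% (TE) and 4.21% (PN5), 1 intronic site recurred in 9 lists. This site (chr2:10552527-10554831) lies between 182 and 184 kb into the gene and had a peak in CC and in all 8 SCNT lists and not in PN5. Its fold was 3.20 (CC), 3.14 (6 hpa), 3.70 (14 hpa), 2.57 (2-cell), 3.60 (4-cell), 2.95 (8-cell), 3.68 (morula), 4.74 (ICM) and 3.38 (TE). At the 2-cell and 4-cell stages it was the only peak in the gene or its flank. All of its 2305 bases are soft-masked as repeats, and mapping of short reads to repeats was not examined here. PN5 had 20 peaks over Sfmbt2 and its flank, more than any other list, and 18 of the 31 sites of this gene were in PN5 only. Of those 20 peaks, 13 had a −log10 q under 2. Sites were not counted for other genes, so the share in PN5 only has no background here.

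The miRNA genes inside Sfmbt2 had no peak in any of the 10 lists. The annotation places 119 of them in 53.0 kb (chr2:10465287-10518279), between 94.8 and 148 kb into the gene. This block is 37.9% soft-masked, and mapping of short reads to it was not examined here. Other miRNA genes and other stretches of this size were not counted beside it. The nearest peaks on its 5′ side were at the site from chr2:10452913 to 10453994, with peaks in CC, 6 hpa, 14 hpa, morula and PN5.

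Jade1 had the fewest peaks of the 5 genes, 18 in all lists together. In the 5 lists from 14 hpa to the morula neither its body nor its 50 kb upstream held a peak, a run of empty lists shared by 1.97% of protein-coding genes of 50 to 200 kb and by 7.03% of all protein-coding genes. The body was covered to 0.522% (CC), 3.29% (6 hpa) and 0.237% (PN5), by 1, 4 and 1 peaks, and was without a peak in ICM and TE. The 6 hpa coverage was the highest of the 10 lists. The upstream flank had peaks again in ICM (3.95%) and TE (2.85%). In ICM a peak 19.5 to 20.1 kb upstream (chr3:41535675-41536252) had a fold of 4.75, and TE had one at the same place with a fold of 2.65. A second place, 10.6 to 12.0 kb upstream, had a fold of 3.54 in ICM and 3.37 in TE. In PN5 the flank was covered to 16.8%, more than in 91.8% of protein-coding genes, by 5 peaks between 17.4 and 48.8 kb upstream.

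**Figure D3:**
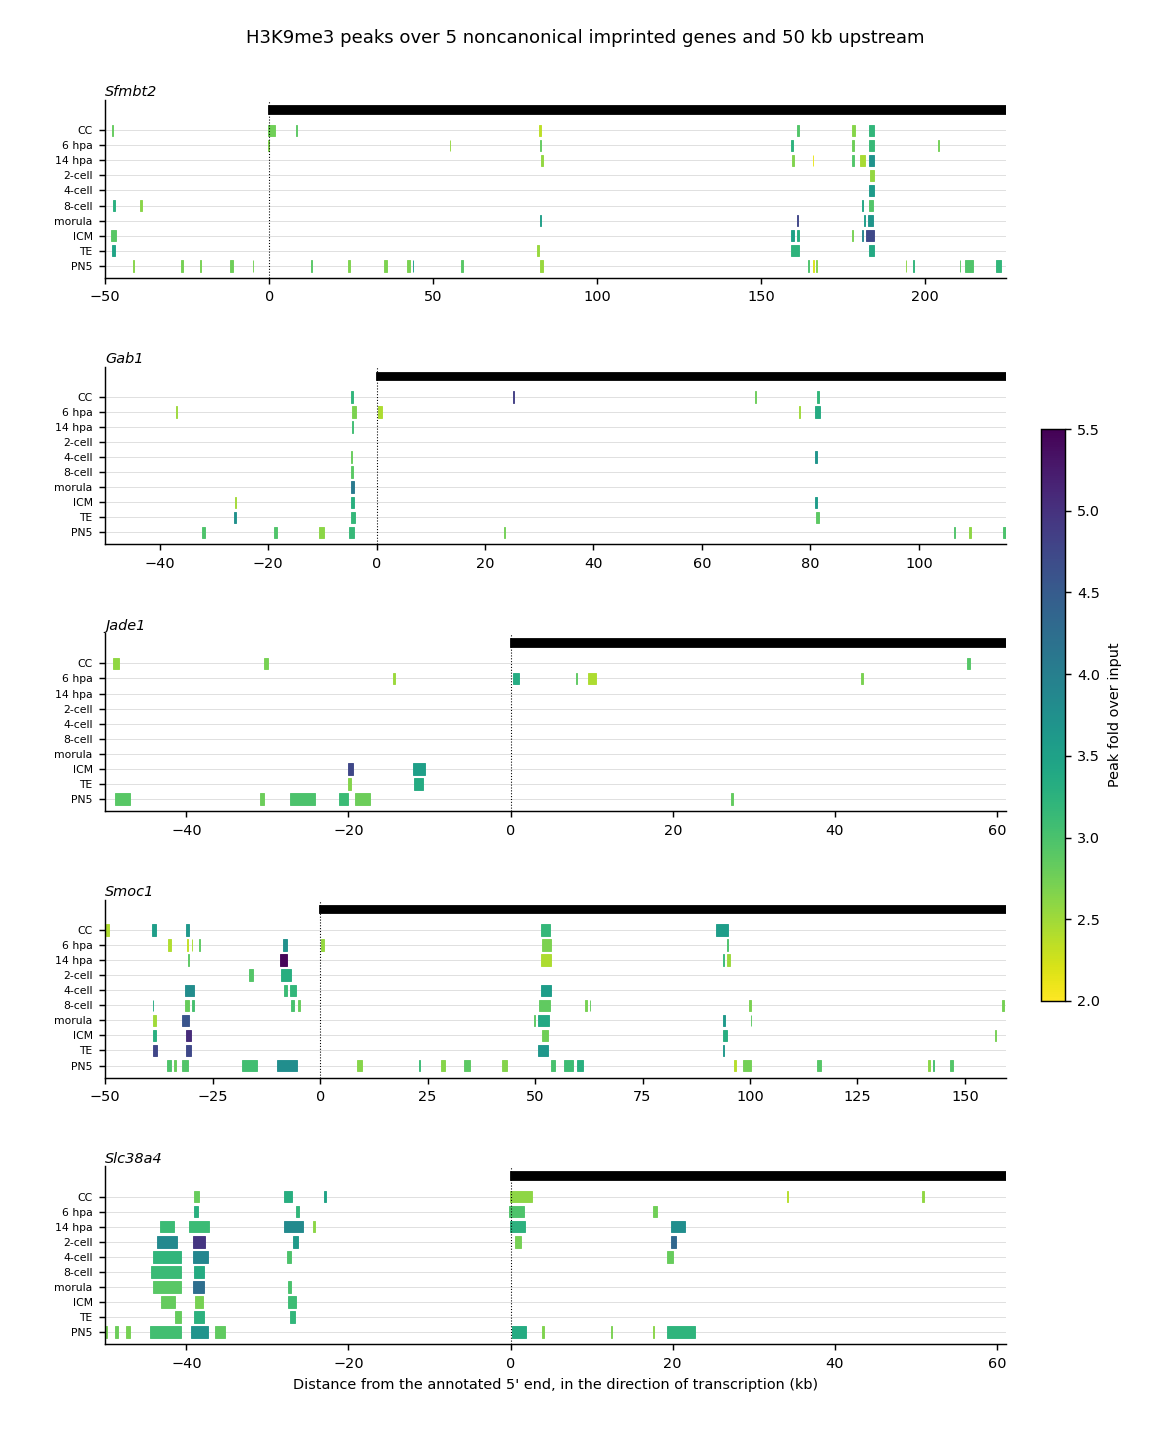
All 221 H3K9me3 peaks over the 5 genes and the 50 kb upstream of each, by list (rows) and by distance from the annotated 5′ end in kb (x axis, a scale of its own for each gene). The black bar is the gene body, colour gives the fold over input, and each peak is outlined by a thin line, so that the narrowest look wider than they are. Recurrent sites appear as columns, such as that at 182 to 184 kb in Sfmbt2 and that at 37.2 to 39.6 kb upstream of Slc38a4, while PN5 has peaks at places where other lists have none.

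Gab1 had coverage of its body of 0.796% (CC), 1.61% (6 hpa), 0.171% (4-cell), 0.190% (ICM), 0.493% (TE) and 1.03% (PN5), and no peak in the other 4 lists. The highest fold over this gene, 4.85, was that of a peak of 226 bp in CC, 25.2 to 25.4 kb into the gene, with no peak there in any other list. The recurrent site was upstream (chr8:80884367-80885652, 3.85 to 5.13 kb before the 5′ end) and had a peak in 9 lists, all but the 2-cell list. Its fold was 3.22 (CC), 2.69 (6 hpa), 3.07 (14 hpa), 2.82 (4-cell), 2.89 (8-cell), 4.07 (morula), 3.30 (ICM), 3.17 (TE) and 3.16 (PN5). The 4-cell peak there did not overlap that of 6 hpa. At the 2-cell stage no peak lay over Gab1 or its flank, as was so for 22.5% of protein-coding genes of 50 to 200 kb. The neighbouring 6 hpa promoter peak was a separate one.

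Smoc1 had the most peaks of the 5 genes, 68 in all lists together. Its body was covered to 3.08% (CC), 2.00% (6 hpa), 2.14% (14 hpa), 0 (2-cell), 1.39% (4-cell), 2.69% (8-cell), 2.05% (morula), 1.56% (ICM), 1.57% (TE) and 8.47% (PN5). A site 50.7 to 54.5 kb into the gene (chr12:81077513-81081343) had a peak in every list but that of the 2-cell stage. In PN5 the peak there lay at the far edge of the site and overlapped only those of 6 and 14 hpa, by their ends.

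Upstream of Smoc1, 2 sites had different timing. The farther one (chr12:80994664-80997415, 29.4 to 32.1 kb upstream) had its highest folds in morula (4.58), ICM (5.07) and TE (4.75), and lower ones in the lists of PN5 (2.95), 14 hpa (2.88), CC (3.64) and the 4-cell stage (3.79), with no peak at the 2-cell stage. The nearer one (chr12:81016742-81021329, 5.48 to 10.1 kb upstream) had no peak in CC. It had one at 6 hpa (786 bp, fold 3.74), at 14 hpa (1656 bp, fold 5.44, the highest fold of the 221 peaks) and at the 2-cell stage (2362 bp, fold 3.30), at the 4-cell and 8-cell stages with folds from 3.03 to 3.20, and none in morula, ICM or TE. PN5 had there the widest of the 221 peaks, at 4588 bp with a fold of 3.79. The 8-cell peak of this nearer site did not overlap those of 6 and 14 hpa. This site was thus without a peak in the donor cells, was marked in both SCNT and fertilized zygotes, and was again without a peak from the morula on.

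Slc38a4 had its body covered to 4.81% (CC), 3.49% (6 hpa), 5.70% (14 hpa), 2.19% (2-cell), 1.16% (4-cell) and 9.43% (PN5), and had no peak in the other 4 lists. Apart from the promoter, an intronic site 19.2 to 22.8 kb into the gene (chr15:97033166-97036718) had peaks at 14 hpa (fold 3.78), 2-cell (4.35), 4-cell (2.82) and in PN5 (3.23), and none in CC or at 6 hpa. In the SCNT lists from the 8-cell stage on, the whole gene body was without a peak.

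The flank of Slc38a4 kept peaks throughout. It was covered to 3.93% (CC), 2.15% (6 hpa), 13.4% (14 hpa), 8.78% (2-cell), 11.5% (4-cell), 9.82% (8-cell), 10.6% (morula), 7.78% (ICM), 5.11% (TE) and 16.6% (PN5). The step from 6 to 14 hpa was past 5 points, as in 20.7% of protein-coding genes in that direction, and so was that from morula to TE, lower, as in 12.5%. A site 37.2 to 39.6 kb upstream (chr15:97093198-97095583) was the only 1 of the 106 sites of these genes with a peak in all 10 lists. In it 391 bases were in peaks of every list, and 21.7% of protein-coding genes have at least 1 such base in their flank. Its fold was 2.81 (CC), 3.29 (6 hpa), 3.12 (14 hpa), 4.96 (2-cell), 3.89 (4-cell), 3.37 (8-cell), 4.24 (morula), 2.72 (ICM), 3.26 (TE) and 3.70 (PN5). A neighbouring site 40.6 to 44.5 kb upstream (chr15:97096582-97100470) had no peak in CC or at 6 hpa and a peak in the other 8 lists, PN5 included. The TE peak there lay at the edge nearer the gene and did not overlap those of ICM and 14 hpa.

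The recurrent sites are shown next for comparison with the promoters, as 200 bases centred on the longest stretch shared by the most lists, with CpG in capitals. The Slc38a4 stretch (chr15:97094590-97094789, minus strand) has 5 CpG and lies in peaks of all 10 lists. The Sfmbt2 stretch (chr2:10554151-10554350, plus strand) has 12 CpG and lies in peaks of 9. The Gab1 stretch (chr8:80884837-80885036, minus strand) has 2 CpG and lies whole in peaks of 5 lists, while peaks of 8 lists reach into it. The Smoc1 stretch within the gene (chr12:81079030-81079229, plus strand) has 1 and lies in peaks of 8. The share of soft-masked bases was 69.5%, 100%, 43.0% and 13.5% in that order.
Slc38a4: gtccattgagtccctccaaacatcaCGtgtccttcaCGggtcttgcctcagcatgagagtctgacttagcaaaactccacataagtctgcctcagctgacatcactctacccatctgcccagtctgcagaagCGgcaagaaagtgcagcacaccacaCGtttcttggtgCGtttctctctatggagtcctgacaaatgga
Sfmbt2: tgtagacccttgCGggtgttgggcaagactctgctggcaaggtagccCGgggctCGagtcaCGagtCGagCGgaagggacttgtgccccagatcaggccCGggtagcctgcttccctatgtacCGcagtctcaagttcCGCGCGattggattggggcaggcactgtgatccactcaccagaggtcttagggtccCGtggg
Gab1: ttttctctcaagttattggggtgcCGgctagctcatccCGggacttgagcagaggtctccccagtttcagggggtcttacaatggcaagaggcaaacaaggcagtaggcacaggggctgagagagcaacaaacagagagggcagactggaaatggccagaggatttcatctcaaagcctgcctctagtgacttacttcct
Smoc1: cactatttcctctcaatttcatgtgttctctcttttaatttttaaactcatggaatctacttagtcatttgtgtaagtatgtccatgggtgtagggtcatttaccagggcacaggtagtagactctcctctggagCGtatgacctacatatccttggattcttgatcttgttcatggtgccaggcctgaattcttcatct

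Set side by side, the 5 upstream flanks were covered most in PN5. The PN5 value was 4.74% for Sfmbt2, 16.8% for Jade1, 6.27% for Gab1, 21.5% for Smoc1 and 16.6% for Slc38a4, and for each gene it was above the 9 other lists, a pattern found in 26.3% of all protein-coding genes. The highest of the other lists was 2.73% for Sfmbt2 (ICM), 3.95% for Jade1 (ICM), 1.99% for Gab1 (TE), 7.86% for Smoc1 (4-cell) and 13.4% for Slc38a4 (14 hpa). Together the flanks were covered to 13.2% in PN5 (9.54 to 17.9%) and to between 1.82% and 4.06% in the other lists, where the highest upper bound was 7.28%. These bounds take each 1 kb as independent, while a single PN5 peak in these flanks was up to 4588 bp wide. They are therefore too narrow to set PN5 apart from the other lists. Over all protein-coding genes the PN5 mean was 6.14%, with means of 5.05% to 8.79% for the others. PN5 was above 14 hpa by at least 5 points for Jade1, Gab1 and Smoc1, as in 15.6% of all protein-coding genes.

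The choice of peaks decided part of this. With all lists trimmed to the covered length of PN5, the shortest, all 5 flanks were still highest in PN5 (32.1% of all protein-coding genes). PN5 kept all its peaks there and the other lists only lost some. This outcome was therefore fixed in advance and is no check. With −log10 q limited to 2 or more, PN5 was highest for Jade1, Gab1 and Smoc1 (16.7%). Sfmbt2 then had no PN5 peak left in its flank, and Slc38a4 had 12.0% in PN5 against 13.4% at 14 hpa. With a fold of at least 3, PN5 was highest for Gab1 and Smoc1 (15.6%). Peaks started at a −log10 q of 1.30 in the PN5 list, against 1.31 to 1.52 elsewhere, and 53.1% of the PN5 peaks over these genes and 54.3% of the whole PN5 list were under 2.

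**Figure D4:**
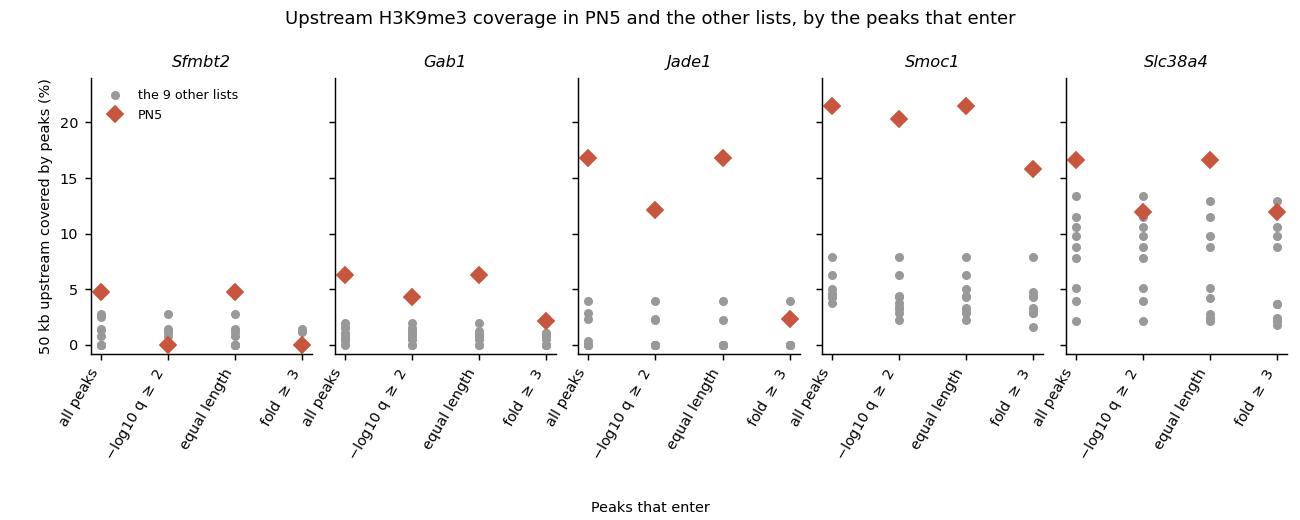
Share of the 50 kb upstream flank covered by peaks (percent) in PN5 (diamonds) and in each of the 9 other lists (grey circles), for each gene and for 4 choices of peaks along the x axis. Smoc1 and Gab1 are highest in PN5 under each of the 4 choices, Jade1 under 3 of them, and Sfmbt2 and Slc38a4 with all peaks and at equal covered length. At equal covered length PN5 keeps all its peaks and the others only lose some, so PN5 could not lose its place there.

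Counted as sites, that is as peaks merged over lists, the 5 genes with their flanks held 221 peaks at 106 sites. Of these sites, 78 were in 1 list only, 48 of them in PN5, 12 at 6 hpa and 9 in CC, while 14 were in at least 5 lists. Sites were not counted for other genes, so these counts do not show a trait particular to the 5. Peaks that touch neither a gene nor its flank were not counted, and 1 of the 48 sites, across the 3′ end of Gab1 (chr8:80762688-80764938), was covered to 31.4% at 14 hpa by a peak beyond the gene. Exon bases of the 5 genes were in 13 of the 221 peaks, so nearly all lay in introns or upstream. This was not counted for other genes either. Of the PN5 bases over these genes 6.18% were also in CC peaks (2.40 to 15.0%), against 33.0% of the whole PN5 list. Taken from the other side, 18.8% of the CC bases over these genes were in PN5 peaks (7.47 to 39.9%), against 17.3% of the whole CC list. Of the 2-cell bases 84.6% were in PN5 peaks (53.3 to 96.3%), against 38.1% of the whole 2-cell list, and 24.4% were in CC peaks, against 56.7%. The 2-cell values rest on 9793 bases in 8 peaks, 5 of which lay in or upstream of Slc38a4, 2 upstream of Smoc1 and 1 in Sfmbt2. The whole lists include peaks outside genes and flanks, and shared bases were not counted for other genes. The intervals take each 1 kb as independent and are too narrow to set these genes apart.

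The median fold of these peaks was above that of the list they came from in each of the 10 lists, by differing amounts. It was 2.88 (CC) against 2.70 for the list, 2.75 against 2.73 (6 hpa), 3.01 against 2.72 (14 hpa), 3.45 against 3.09 (2-cell), 3.21 against 3.04 (4-cell), 2.89 against 2.87 (8-cell), 3.55 against 2.98 (morula), 3.30 against 3.02 (ICM), 3.316 against 3.005 (TE) and 2.87 against 2.84 (PN5). The highest were in Smoc1 at 14 hpa (5.44) and in ICM (5.07).

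**Figure D5:**
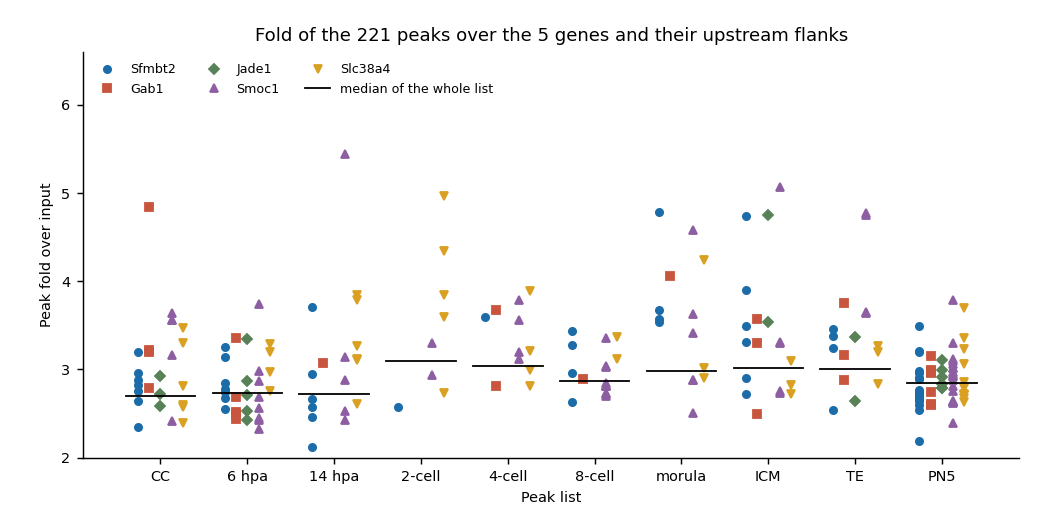
Fold over input of each of the 221 peaks over the 5 genes and their upstream flanks (markers, by gene), for each list, with the median of the whole list (black lines). PN5 has the most peaks, 64, and its highest fold is 3.79, while single peaks reach 5.44 at 14 hpa and 5.07 in ICM.

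Genes of canonical imprinting, in which DNA methylation carries the parental bias, gave other values. Of 24 such genes, 12 had a promoter peak in CC, 18 (6 hpa), 17 (14 hpa), 17 (2-cell) and 8 (PN5). The number was 15 (4-cell), 13 (8-cell), 11 (morula), 12 (ICM) and 14 (TE), lists in which none of the 5 promoters held a peak. The shares over all protein-coding genes were 12.5% (CC), 34.4% (6 hpa), 13.1% (14 hpa), 9.96% (2-cell) and 11.5% (PN5). They were 8.85% (4-cell), 9.38% (8-cell), 7.31% (morula), 6.28% (ICM) and 6.32% (TE). Median body coverage of the 24 genes was 10.2% (CC), 11.1% (2-cell) and 4.67% (PN5). The genes named next are extremes, the 2 most covered of the 24 in CC and the 2 in PN5. Cdkn1c, a growth-restraining cell cycle inhibitor, had its body covered to 93.6% (CC), 80.0% (6 hpa), 73.6% (14 hpa), 100% (2-cell) and 0 (PN5). Magel2, a gene of the Prader-Willi region, had 86.3% in CC, 70.2% at the 2-cell stage and 17.1% in PN5. The growth factor gene Igf2 had 1.65% (CC), 46.3% (6 hpa) and 28.3% (PN5), and Zrsr1 had 14.6% (CC), 57.4% (2-cell) and 82.0% (TE).

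Of 24 genes that write, read or remove histone and DNA methylation, 2 had a promoter peak in CC, 13 (6 hpa), 1 (14 hpa), 2 (2-cell) and 1 (PN5), and none had one from the 4-cell stage to ICM and TE. Their median body coverage was 0.0887% (CC), 1.52% (6 hpa) and 2.15% (PN5), and the genes named next are those most covered in CC or in PN5. Suv39h1, an H3K9 methyltransferase, had its body covered to 44.8% in CC, 31.6% at 6 hpa and 0 in PN5. Ring1, the E3 ligase of Polycomb complex 1, had 31.0% (CC) and 71.5% (PN5), and Kdm6b, an H3K27me3 demethylase, had 0 (CC), 10.6% (6 hpa) and 52.0% (PN5). The shares of all protein-coding genes with a promoter peak are those given above for the canonical genes. Both comparison lists are small, and these counts are descriptions.

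The nearest protein-coding genes did not share the values of the 5 genes in a uniform way. Itih5, 114 kb upstream of Sfmbt2, had its body covered to 11.8% in PN5 and Prkcq, 577 kb downstream, to 6.58%. Smarca5 and Usp38, around Gab1, had 2.25% and 3.59% in PN5. Around Jade1, Pgrmc2 had no peak in any list and Sclt1, 9.86 kb downstream, had 2.63% at 14 hpa. Slc10a1 upstream of Smoc1 had none, and Slc8a3, 11.5 kb downstream, had 20.1% at the 8-cell stage and 15.1% in PN5. Slc38a2, a paralogue and the nearest gene downstream of Slc38a4, had 26.0% (PN5) and 2.47% (6 hpa) and 0 in the other 8 lists, and Amigo2 had 8.38% (6 hpa) and 0 (PN5).

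The pattern of gene body coverage over the 10 lists was most like that of Arhgap32 (Pearson r = 0.98) and Nxn (0.98) for Sfmbt2, Elavl2 (0.97) and Runx1t1 (0.95) for Jade1, Dnm2 (0.96) and Rai1 (0.95) for Gab1, Plpp1 (0.98) and Snx24 (0.98) for Smoc1, and Rsf1 (0.97) and Pou2f3 (0.97) for Slc38a4. These were taken from 3182 genes of 50 to 200 kb with coverage in at least 5 lists. A high r does not mean like amounts: Rsf1 was covered to at most 0.389% (PN5) and to 0 from the 4-cell stage to ICM and TE. Slc38a4 had 9.43% in PN5. The 10 points are lists of different length, so each r is a description only.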

How the data were processed

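Per the labels, 41 precipitated and 33 input libraries fall into 20 groups. The authors trimmed reads with cutadapt 1.16, aligned them to mm10 with BWA, merged libraries with SAMtools, removed duplicates and drew equal read numbers with Picard, and called broad peaks over input with MACS2. Versions other than that of cutadapt are not given in the sources used here. Each deposited peak has a fold over input (a ratio), a −log10 p, a −log10 q and a score made from the q value. Here fold described peaks, and −log10 q and fold filtered them in alternatives.

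Overlapping peaks of a list were merged, and covered bases were counted over each gene body, the promoter (1000 bases on each side of the 5′ end) and 50 kb upstream, with Python 3.11.15 and numpy 2.4.6, tested on simulated intervals. Genes came from GENCODE M21 and sequence from GRCm38.p6, and coordinates are 1-based. Intervals are Wilson 95% intervals per 1 kb. High-CpG promoters had a 500-bp window (step 10) with a CpG ratio of at least 0.75 and a GC content of at least 55%, low-CpG promoters had none of 0.48 or more, and the rest were intermediate.

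The 5 genes and the 2 comparison lists were chosen with earlier results of these data known. Named beside the 5 were the 2 genes of each comparison list most covered in CC and in PN5, the nearest protein-coding gene on each side, and the 2 genes of 50 to 200 kb with the highest Pearson r. The patterns of PN5, of 6 hpa, of empty lists and of shared bases were counted over all genes after the values were seen. Alternatives were a −log10 q of at least 2, a fold of at least 3, lists trimmed to equal covered length, and other promoter, gene body and flank limits.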

Additional observations from a re-analysis of the deposited data

How the results depend on the processing

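No paired analysis was possible because libraries had been pooled into 1 list per group, and for the same reason no library could be left out. Of the 188 comparisons of a summary value with an alternative, 153 stayed within the interval or within 1.5 times the count, and 35 moved. PN5 values could not move at equal covered length, since PN5 is the list with the least covered length. For the number of promoters with a peak, CC had 0 at equal covered length and 0 at a fold of at least 3. At 6 hpa there were 3 with a −log10 q of at least 2, 1 at a fold of at least 3 and 1 where at least 50% of the promoter had to be covered. The 2-cell list had 0 under each of these 3, and PN5 had 0 under the 50% rule. The PN5 pattern upstream held for 3 genes with a −log10 q of at least 2, for 2 at a fold of at least 3 and for 3 with a flank of 20 kb. The promoter peak at 6 hpa alone held for 1 gene with the limit on −log10 q (12.2% of all protein-coding genes) and for 1 with that on fold (5.48%). These last 2 counts, and those of called differences, were chosen after seeing the data.

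Gene bodies together were covered to 1.20% (CC) and 0.917% (14 hpa) at equal covered length. With a −log10 q of at least 2 they had 0.242% (8-cell) and 2.74% (PN5). At a fold of at least 3 they had 1.15% (CC), 0.548% (6 hpa), 0.815% (14 hpa), 0.0983% (2-cell), 0.0222% (8-cell) and 1.93% (PN5). Flanks together had 1.41% in the morula at equal covered length. At a fold of at least 3 they had 0.668% (6 hpa), 1.59% (morula) and 6.42% (PN5). With a flank of 20 kb they had 0.903% (CC), 2.03% (4-cell), 1.29% (8-cell) and 0.528% (morula). Called differences of a gene body numbered 0 between 14 hpa and PN5 with a −log10 q of at least 2 and at a fold of at least 3, and 1 between 6 and 14 hpa at a fold of at least 3. Fewer peaks enter under these limits, and other causes were not tested. Without replicates, no difference between lists could be set against an error.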
